A study of Mus musculus with 2 samples.

Results

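Igf1 and the proteins that carry or receive it were described in the adrenal gland of female mice, as 10 genes of the 55536 GENCODE genes in the gene table: Igf1, its receptor gene Igf1r, the acid-labile subunit gene Igfals, and the 7 binding protein genes Igfbp1 to Igfbp7. The genes were chosen by symbol in the transcript tables and linked to the gene table by gene identifier, and all 10 were found in both libraries. Total RNA, with ribosomal RNA reduced and synthetic ERCC spike-ins added, was sequenced from 1 group: adrenal gland of female B6CASTF1/J mice, an F1 hybrid strain, at an age of 14 days, with 300 ng of RNA for each library. The labels number the 2 libraries as biological replicates, give no treatment and no second condition, and list 1 donor identifier and 1 pooled library description for both. The tissue label names pooled females for replicate 1 and a single numbered female for replicate 2. The labels therefore leave unsettled whether the libraries come from separate animals, and their spread may be technical in part.

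IGF1 is a growth-promoting peptide hormone that signals through the receptor tyrosine kinase encoded by Igf1r. In the circulation most of it travels in a complex with a binding protein and the acid-labile subunit, and the liver is the main source of circulating IGF1, while many tissues also make their own. The binding proteins hold IGFs away from the receptor or deliver them to it, and proteases that cut them release the ligand. In the adrenal gland, IGF signalling is known to act on growth of the cortex and on steroid output.

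The libraries summed to 37586142 and 33844921 expected counts in replicates 1 and 2, and ERCC spike-ins took 0.337% and 0.322% of them. No test between conditions was possible with 1 group, so no p-value is given. A gene is called higher or lower when its counts, scaled by edgeR's TMM, differed at least 2-fold between the libraries. Intervals of a fold are exact 95% intervals (Clopper-Pearson) and cover counting error only. All 10 adrenal cortex markers were present, with summed levels of 8904 and 3649 TPM (a level per transcript length), and so were all 10 chromaffin markers, with 1790.3 and 807 TPM. The libraries stood apart in markers of other tissues. Of 11 hepatocyte markers, 11 were higher in replicate 2, by 71.0-fold to 104-fold, with summed levels of 339.7 and 19933 TPM and no marker at 0. Of 10 skeletal muscle markers, 9 were higher in replicate 2 (27.6 and 582 TPM summed). Of 10 T cell and thymus markers, 10 were lower in replicate 2 (74.0 and 2.27 TPM summed). In bulk tissue, fewer cells of a type and less RNA per cell cannot be told apart.

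Of the 10 members, 5 were higher in replicate 2 and 0 were lower. Those 5 were Igf1, Igfals, Igfbp1, Igfbp2 and Igfbp4. The other 5, Igf1r, Igfbp3, Igfbp5, Igfbp6 and Igfbp7, did not reach 2-fold in either direction. The background was 16170 genes, those whose counts averaged 20 or more, of which 8.44% were higher in replicate 2 and 2.55% were lower. The median log2 difference of scaled counts was 2.04 over the members and 0.00 over those genes. At a minimum of 1 TPM, 8 members were present in both libraries, and Igfals and Igfbp1 reached it in replicate 2 alone.

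**Figure D1:**
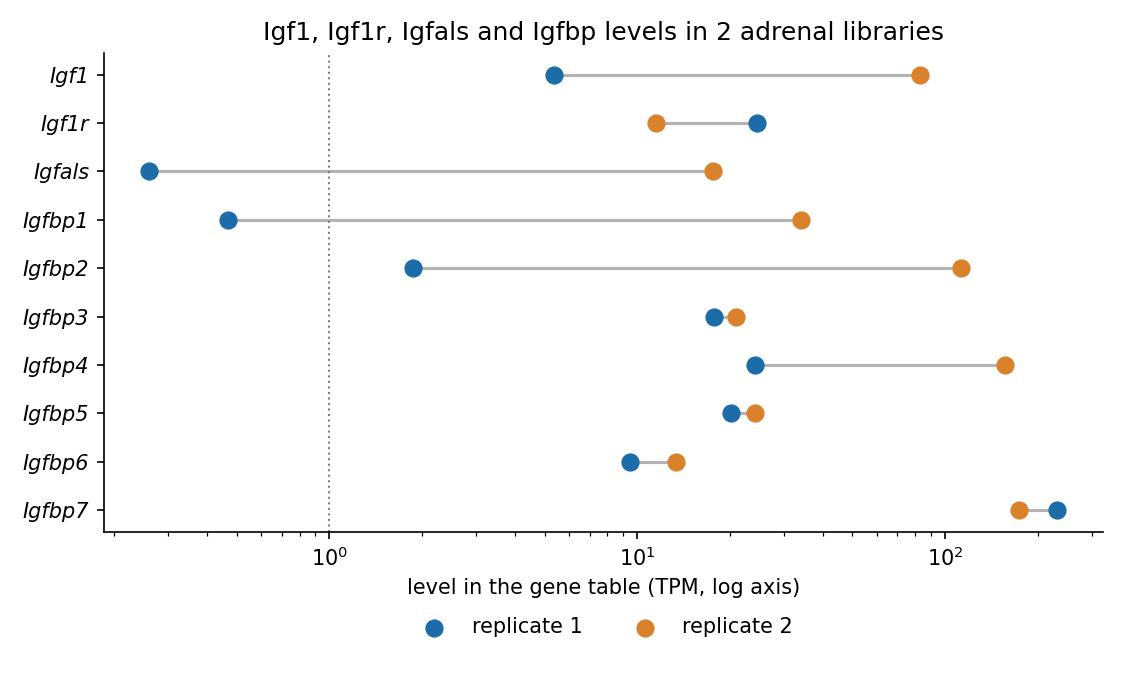
Level of each member in each library, in TPM on a log axis; a grey line joins the 2 libraries of a gene, and the dotted line marks 1 TPM. Igfbp7 has the highest level in both libraries (231 and 174 TPM), while Igfals, Igfbp1 and Igfbp2 lie between 0.260 and 1.87 TPM in replicate 1 and between 17.6 and 113 TPM in replicate 2.

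Igf1, the ligand, had a level of 5.36 TPM in replicate 1 and of 83.1 TPM in replicate 2, from 814 and 8011 counts. The second library was far above the first, and the scaled counts differed 13.9-fold (12.9 to 14.9). Igf1 lies on the plus strand of chromosome 10 (mm10, chr10:87858265-87937042). An antisense gene, Igf1os, overlaps it on the other strand and had 0 and 2 counts. Igf2, the other IGF ligand and no member of the set, was at 18.3 and 217 TPM and was 13.3-fold higher in replicate 2. The level of Igf2 was 3.41 times that of Igf1 in replicate 1 and 2.62 times in replicate 2, while the scaled counts of both differed over 10-fold between libraries. In the second of the authors' transcript tables Igf2 was at 35.3 and 326 TPM and Igf1 at 8.94 and 152 TPM. The ratio of TPM fell further there, so how closely it was kept depends on the table and on the measure. On scaled counts the folds were close, 13.3 for Igf2 and 13.9 for Igf1. TPM also depends on the transcript length given to a gene, which was 4486 and 3024 bases for Igf1 and 2901 and 2425 for Igf2. The length for Igf1 follows the division of reads among its transcripts.

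Igf1 transcripts begin in alternative leader exons, so that the signal peptide starts at one of 2 start codons. Near the other end of the message, a 52-base exon decides which E peptide, the tail removed from the IGF1 precursor, is encoded. These 3 stretches mark the transcript classes compared here, though several of the 8 coding transcripts share a class, and they are shown from the GENCODE M21 transcripts, 5′ to 3′ on the plus strand, with start codons in capitals. The exon 1 coding segment lies at chr10:87859350-87859412, the exon 2 coding segment at chr10:87861371-87861385 and the 52-base exon at chr10:87915298-87915349.
exon 1 coding segment: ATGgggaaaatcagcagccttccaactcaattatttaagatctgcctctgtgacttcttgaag
exon 2 coding segment: ATGaccgcacctgca
52-base exon: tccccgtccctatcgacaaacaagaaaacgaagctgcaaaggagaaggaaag

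Of the 8 annotated coding transcripts of Igf1, 3 use the exon 1 start codon and 5 the exon 2 start codon. Transcripts with the exon 1 start held 784 and 7163 expected counts, and those with the exon 2 start held 30.1 and 848. These counts also depend on the annotated far ends of the transcripts. Igf1-202, in the exon 1 class, has a last exon of 6368 bases, and no exon 2 transcript has one longer than 597 bases. Reads in most of that long exon can only be given to the exon 1 class, whichever start codon their message used. Both classes were higher in replicate 2, by 12.9-fold (12.0 to 13.9) for exon 1 and 39.7-fold (27.7 to 59.4) for exon 2 on scaled counts. These intervals leave out the error of dividing reads among transcripts, so they cannot show that the 2 folds differ. As a share of the counts of Igf1, the exon 2 class took 3.70% in replicate 1 and 10.6% in replicate 2. As a share of its TPM, which divides counts by transcript length, the same class took 19.0% and 50.3%. The second transcript table, which the authors made from reads and an index, put the exon 2 class at 54.2% and 73.0% of the TPM. Its folds were 13.0 for the exon 1 class and 26.5 for the exon 2 class, the latter below the interval of 27.7 to 59.4 given above. Both tables thus gave the exon 2 class a larger share in replicate 2, and they differed on how large it was. The 52-base exon, with that start and end, is in 3 of the transcripts, which took 35.6% and 51.7% of the Igf1 TPM in the first table and 24.3% and 31.5% in the second. In Igf1-201 the same 52 bases begin a longer last exon of 597 bases, and with it counted the shares were 38.5% and 52.3%, and 27.0% and 32.0%. Igf1-203, an exon 1 transcript with the 52-base exon, shows how the tables part: it had 76.61 and 665.96 counts in the first table and 0 in both libraries of the second. These are estimates that divide reads among transcripts sharing most of their bases.

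**Figure D2:**
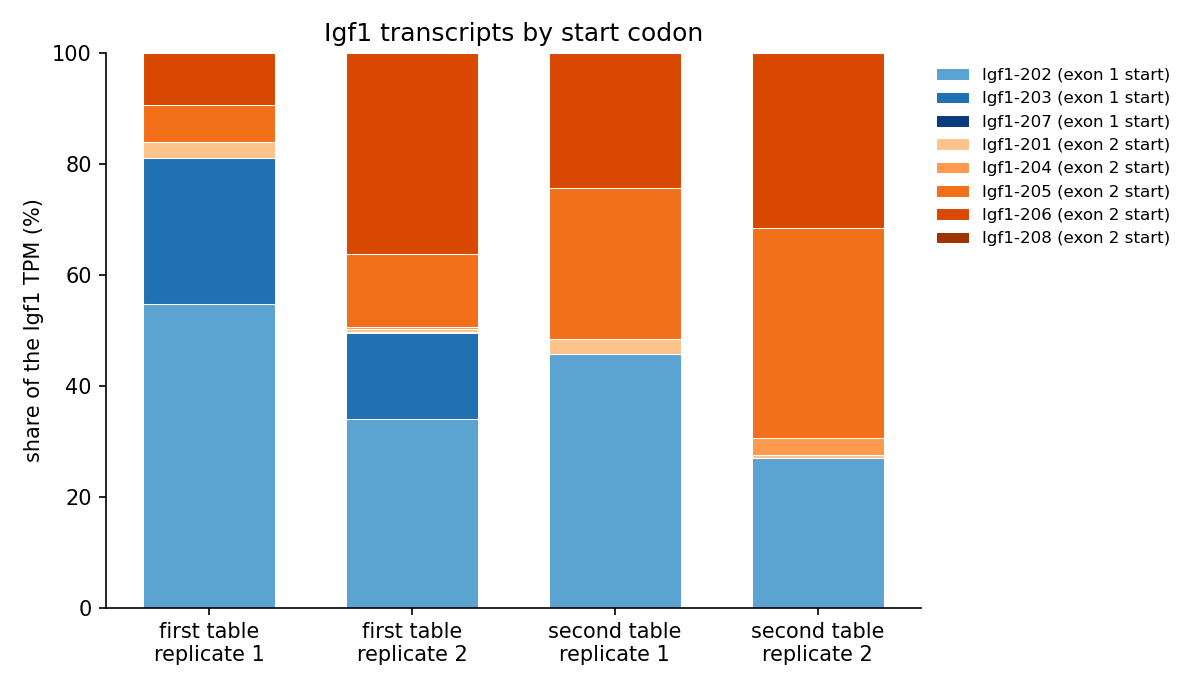
Share of the Igf1 TPM (%) given to each annotated coding transcript, for both transcript tables and both libraries; blue bars use the exon 1 start codon and orange bars the exon 2 start codon. The orange part is larger in replicate 2 in both tables, 50.3% against 19.0% in the first and 73.0% against 54.2% in the second.

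Igf1r, the receptor, went the other way. Its level was 24.4 TPM in the first library and 11.5 TPM in the second, from 8542 and 3953 counts. The first library was the higher one, and scaled counts were 1.53-fold (1.48 to 1.59) higher there, which is under the 2-fold rule. On log2(TPM + 1), where the median gene sat 0.31 lower in replicate 2, Igf1r was lower in replicate 2 by more than 2-fold, with a log2 difference of -1.02. Igf1r spans 281 kb of chromosome 7 (chr7:67952827-68233668, plus strand), and its main coding transcript, Igf1r-201, held 87.2% and 90.2% of its TPM. The ratio of ligand to receptor, Igf1 over Igf1r in TPM, was 0.220 in replicate 1 and 7.21 in replicate 2. Insr, the insulin receptor gene, was at 36.5 and 27.6 TPM, above Igf1r in both libraries, and Igf2r, the receptor that clears IGF2, was at 20.1 and 15.7 TPM. Both had scaled counts close to equal in the libraries, with folds of 1.00 and 1.05. Ins1 and Ins2, the insulin genes, had 0 counts in both libraries, which allows up to 7.98e-06% and 8.86e-06% of the counts for each gene.

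Igfals encodes the acid-labile subunit, which joins IGF and a binding protein into the large circulating complex. Its level was 0.260 TPM in the first library and 17.6 TPM in the second, from 17 and 1025 counts, an 85.0-fold difference in scaled counts (52.8 to 146). The width of that interval comes from the 17 counts of the first library. Igfals lies at chr17:24865997-24882010 on the plus strand. Its coding transcript, Igfals-201, held 39.1% and 13.7% of its TPM, and Igfals-204, annotated as a processed transcript, held 25.4% and 68.4%. The second table divided it otherwise, with 40.1% and 12.1% for Igfals-201, 0% and 39.1% for Igfals-204, and 59.9% and 46.8% for Igfals-202, also annotated as processed. The replicate 1 shares rest on the 17 counts of that library.

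Igfbp1 encodes a small binding protein made by hepatocytes and known to fall with insulin. It was at 0.470 and 34.0 TPM, from 23 and 1596 counts, and its scaled counts were 97.8-fold (64.9 to 155) higher in replicate 2. Igfbp2, a binding protein of fetal tissues and liver, was at 1.87 and 113 TPM, from 78 and 4419 counts, a difference of 79.8-fold (63.8 to 101). With Igfals, these were the 3 members furthest apart between the libraries, and their intervals overlap one another. All 3 folds lie within the range of 71.0 to 104 seen over the hepatocyte markers, and set against albumin their levels were much closer in the libraries. Per 1000 TPM of Alb, Igfals was at 1.38 and 1.66 TPM, Igfbp1 at 2.49 and 3.21, and Igfbp2 at 9.91 and 10.7. Igf1 did not follow Alb in this way, at 28.4 and 7.85 TPM per 1000 TPM of Alb, and neither did Igfbp4, at 128 and 14.9. The part that liver RNA had in the level of any member was not tested.

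**Figure D3:**
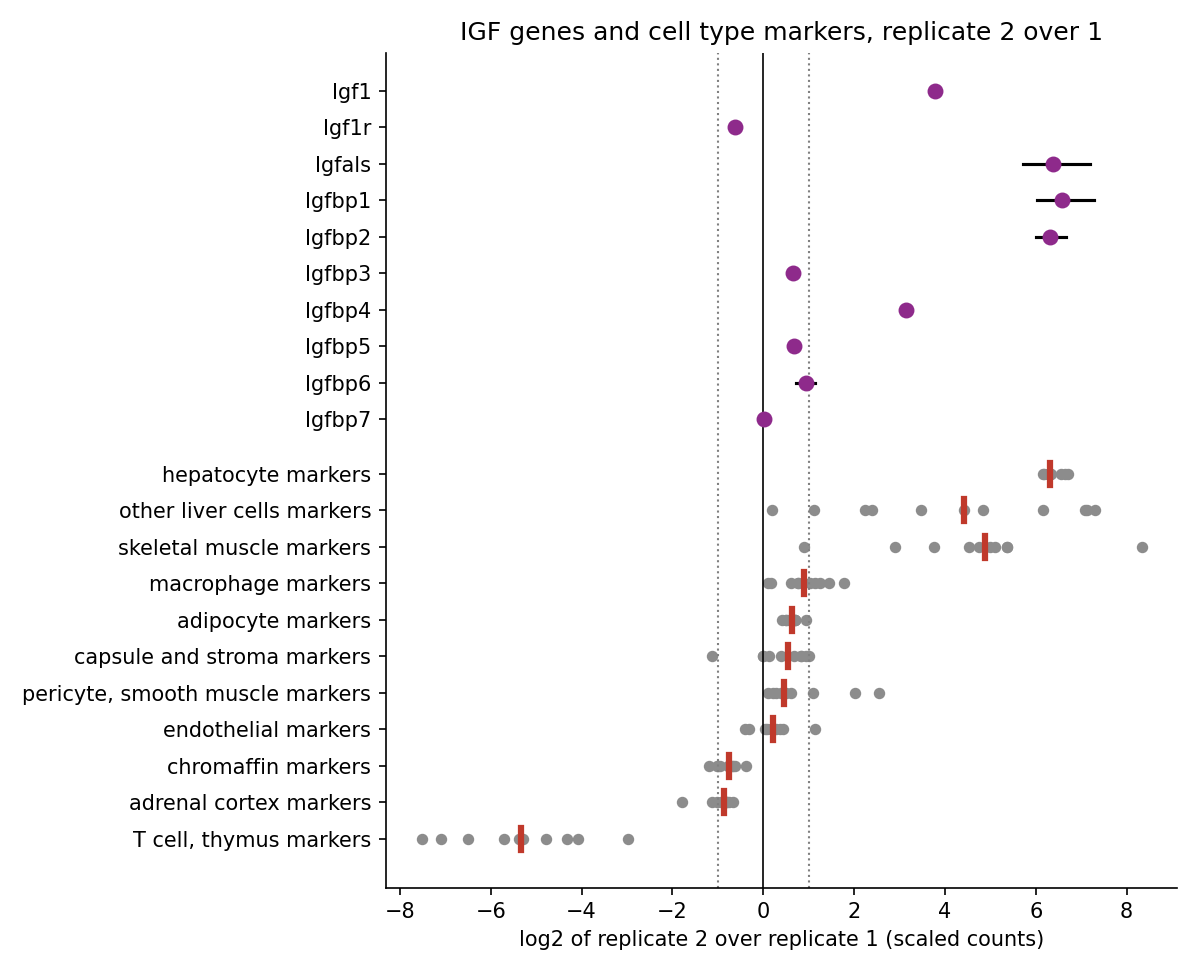
Log2 of replicate 2 over replicate 1 in scaled counts, for the 10 members (purple points, with black bars for the 95% counting intervals) and for the genes of 11 marker lists (grey points, red bar at the list's median); dotted lines mark 2-fold. Igfals, Igfbp1 and Igfbp2, at 6.37, 6.58 and 6.31, lie level with the hepatocyte markers (median 6.31), Igf1 and Igfbp4 lie at 3.79 and 3.15, and the other members lie between -0.62 and 0.93.

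Igfbp4, which binds IGFs until the protease PAPP-A cuts it, was at 24.1 TPM in the first library and 157 TPM in the second, from 1791 and 11315 counts. Scaled counts were 8.90-fold (8.47 to 9.36) higher in replicate 2, the smallest of the 5 differences past 2-fold. It lies at chr11:99041244-99054392 on the plus strand. Igfbp4-201, a coding transcript, held 49.2% and 50.0% of its TPM. In the first table Igfbp4-203, annotated as processed, held 23.6% and 36.3%, and the second table gave that transcript 0 counts. Igfbp4-202, also annotated as processed, held 10.2% and 2.20% in the first table and 42.9% and 47.6% in the second.

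Igfbp3, the main carrier of IGF1 in blood, was at 17.8 and 20.9 TPM, from 1416 and 1592 counts, with scaled counts 1.58-fold (1.47 to 1.70) higher in replicate 2. Igfbp5, found in matrix and stroma, was at 20.1 and 24.1 TPM, from 4099 and 4677 counts, a difference of 1.61-fold (1.54 to 1.68). Igfbp6, which prefers IGF2, was at 9.45 and 13.4 TPM, from 331 and 449 counts, a difference of 1.91-fold (1.65 to 2.21). These 3 genes had their higher value in replicate 2 and stayed under 2-fold, though the interval of Igfbp6 reaches past it. The 10 markers of capsule and stroma had a median log2 difference of 0.54, with summed levels of 396 and 473 TPM, and the 10 adipocyte markers one of 0.64, with 2549.9 and 2845 TPM. Other lists lay as near, with medians of 0.90 for macrophage markers and 0.46 for those of pericytes and smooth muscle. On the same scale Igfbp3, Igfbp5 and Igfbp6 were at 0.66, 0.68 and 0.93, and the part of these cells in their levels was not tested.

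Igfbp7, a binding protein of low IGF affinity found in blood vessels, had the highest level of the set in both libraries, 231 and 174 TPM, from 8124 and 5843 counts. Its scaled counts were nearly equal, 1.01-fold (0.980 to 1.05). That near equality depends on the scaling: the log2 difference was 0.02 with TMM, -0.26 with spike-in counts and -0.32 with total counts, while the median gene moved by -0.28 and -0.34. The 10 endothelial markers had a median log2 difference of 0.21 and summed levels of 283 and 227 TPM, and their part in the level of Igfbp7 was not tested. Igfbp7 lies at chr5:77349240-77408041 on the minus strand. Polr2b, a gene on the other strand, overlaps it and had 3402 and 1977 counts; whether the counting used strand is not given in the sources used here.

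By mean level over the libraries, the order was Igfbp7 at 203 ± 40.0 TPM (SD, n = 2), Igfbp4 at 90.7 ± 94.2, Igfbp2 at 57.5 ± 78.7, Igf1 at 44.2 ± 55.0, Igfbp5 at 22.1 ± 2.79, Igfbp3 at 19.3 ± 2.20, Igf1r at 18.0 ± 9.11, Igfbp1 at 17.2 ± 23.7, Igfbp6 at 11.4 ± 2.82 and Igfals at 8.93 ± 12.3. Only Igfbp7 and Igfbp4 were neighbours whose ranges did not overlap. Each later pair of neighbours overlapped. Igf1r ranked 2 in replicate 1 and was last of the 10 in replicate 2. Igfbp2 ranked 8 in replicate 1 and 3 in replicate 2.

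The mix of binding protein messages differed between the libraries. The 7 genes summed to 305 TPM in replicate 1 and 537 TPM in replicate 2. Igfbp7 made up 75.8% of the sum in replicate 1 and 32.4% in replicate 2. Igfbp4 took 7.92% and 29.3%, Igfbp2 took 0.614% and 21.1%, and Igfbp1 took 0.154% and 6.32%. Igfbp3, Igfbp5 and Igfbp6 each took a smaller share in replicate 2, at 5.84% and 3.89%, 6.60% and 4.48%, and 3.10% and 2.50%, although their levels were higher in replicate 2. Without Igfbp7, a sum chosen after its share was seen, Igfbp4 had the largest share of the TPM in both libraries, 32.7% and 43.4%. The next in rank was Igfbp5 in replicate 1, at 27.2%, and Igfbp2 in replicate 2, at 31.2%. Shares of expected counts, which weight long transcripts more, gave another order: without Igfbp7, Igfbp5 led replicate 1 at 53.0%, with Igfbp4 at 23.1%, and Igfbp4 led replicate 2 at 47.1%. Over all 7 genes, Igfbp7 took 51.2% and 19.5% of the counts, Igfbp5 25.8% and 15.6%, and Igfbp4 11.3% and 37.9%.

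**Figure D4:**
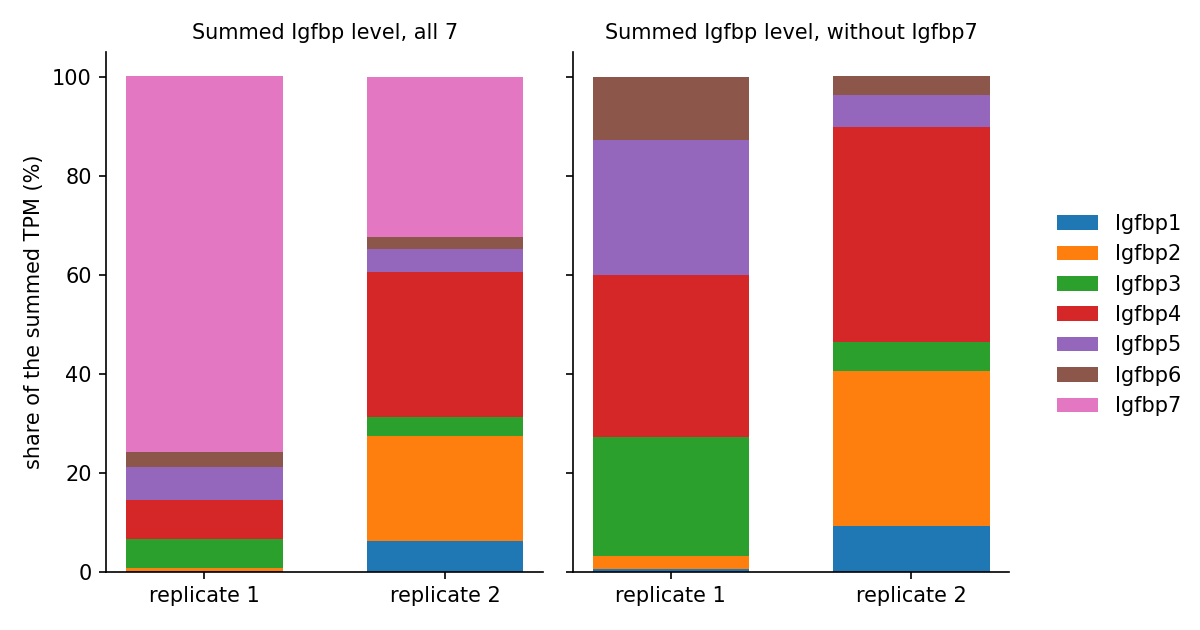
Share of the summed binding protein TPM (%) held by each Igfbp gene in each library, over all 7 genes (left) and without Igfbp7 (right). Igfbp7 fills 75.8% of the left bar of replicate 1 and 32.4% of that of replicate 2, and Igfbp2 grows from 2.53% to 31.2% in the right panel.

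Of the 7 binding protein genes, 4 lie in 2 neighbouring pairs, and in each pair 1 gene was far apart between libraries and the other was not. Igfbp1 (chr11:7197782-7202546, plus strand) and Igfbp3 (chr11:7206086-7213923, minus strand) are separated by 3539 bases with no gene between. The level of Igfbp1 was 0.0264 times that of Igfbp3 in replicate 1 and 1.63 times in replicate 2. Igfbp2 (chr1:72824503-72852474, plus strand) and Igfbp5 (chr1:72857932-72874884, minus strand) are separated by 5457 bases, again with no gene between. The level of Igfbp2 was 0.0930 times that of Igfbp5 in replicate 1 and 4.71 times in replicate 2. In both pairs the order of the neighbours therefore turned round between the libraries. The 250 bases before the RefSeq start of each of these 4 genes (RefSeq, GRCm38.p6) are shown, 5′ to 3′ on the gene's own strand. They were chosen because neighbours differed in how far apart the libraries were. The windows are chr11:7197537-7197786 (plus) for Igfbp1, chr11:7213924-7214173 (minus) for Igfbp3, chr1:72824230-72824479 (plus) for Igfbp2 and chr1:72874866-72875115 (minus) for Igfbp5. Capitals mark matches to any of 4 motifs, searched on both strands.
Igfbp1: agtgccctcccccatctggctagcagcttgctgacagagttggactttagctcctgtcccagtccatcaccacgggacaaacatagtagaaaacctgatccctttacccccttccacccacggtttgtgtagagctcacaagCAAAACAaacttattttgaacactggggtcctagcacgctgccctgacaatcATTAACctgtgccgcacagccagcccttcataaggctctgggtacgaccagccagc
Igfbp3: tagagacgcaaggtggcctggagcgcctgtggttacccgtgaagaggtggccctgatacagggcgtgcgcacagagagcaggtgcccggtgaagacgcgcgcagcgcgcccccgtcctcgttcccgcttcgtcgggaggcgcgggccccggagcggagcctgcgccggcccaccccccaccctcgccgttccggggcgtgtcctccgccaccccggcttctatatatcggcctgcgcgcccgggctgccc
Igfbp2: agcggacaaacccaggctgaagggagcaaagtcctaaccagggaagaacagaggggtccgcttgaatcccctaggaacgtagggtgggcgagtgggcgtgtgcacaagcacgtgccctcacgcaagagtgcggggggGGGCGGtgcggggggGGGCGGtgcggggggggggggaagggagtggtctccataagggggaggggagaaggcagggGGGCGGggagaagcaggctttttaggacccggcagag
Igfbp5: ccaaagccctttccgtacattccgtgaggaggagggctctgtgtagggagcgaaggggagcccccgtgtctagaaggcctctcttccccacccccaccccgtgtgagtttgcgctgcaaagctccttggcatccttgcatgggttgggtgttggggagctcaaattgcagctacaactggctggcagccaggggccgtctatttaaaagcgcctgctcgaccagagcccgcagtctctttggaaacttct

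The motifs were the TATA box (TATAAA), the GC box (GGGCGG), a half-site of the liver factor HNF1 (GTTAAT) and the core of the insulin response element (CAAAACA), which do not overlap one another in these windows. They occur on either strand in 12.4%, 32.7%, 6.43% and 5.56% of the 32851 RefSeq windows of that length. The Igfbp1 window holds 1 insulin response core, which begins 108 bases before the start, and 1 HNF1 half-site on the opposite strand, 56 bases before it. The Igfbp2 window holds 3 GC boxes and neither of those. None of the 4 strings of letters is in the Igfbp3 or Igfbp5 window. Only exact matches were searched, so variants of a motif were not counted. Examples are the tatatat near the end of the Igfbp3 window and the tatttaa near the end of the Igfbp5 window. Among the other members, 4 GC boxes are in the Igfbp7 window and 2 in that of Igf1r, and the windows of Igf1 and Igfals hold none of the 4. The windows of Igfbp4 and Igfbp6 hold 1 TATAAA match each. That of Igfbp4 is on the gene's own strand, 28 bases before the start, and that of Igfbp6 is on the opposite strand, 148 bases before it. GC content was 53.2% for Igfbp1 and 73.2% for Igfbp3, and 67.2% for Igfbp2 and 58.8% for Igfbp5, beside a median of 52.4% over all windows. The windows of Igf1 and Igfals end at RefSeq starts that lie 2846 and 11847 bases from the first annotated GENCODE base of the gene. A match is a string of letters and not a measured binding site.

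Around the members, 65 genes of the IGF pathway were matched, and 61 had enough counts for a fold. Of these, 6 were higher in replicate 2, 0 were lower and 55 did not reach 2-fold, with a median log2 difference of 0.01. Over all genes tested 8.44% were higher and 2.55% lower, and the count of 6 in 61 lies near that background. Igf2, described above, was one of the 6. Ghr, the growth hormone receptor, was at 16.4 and 55.5 TPM (4.55-fold), and Socs2, a feedback inhibitor of growth hormone signalling, was at 5.09 and 10.5 TPM (2.67-fold). Vtn, which encodes vitronectin, a plasma and matrix protein that binds IGF complexes, was at 3.97 and 259 TPM (87.5-fold). The fold of Vtn lies within the range of 71.0 to 104 seen over the hepatocyte markers, and the part of liver RNA in its level was not tested. Igf2bp3, an RNA-binding protein of IGF2 messages, was at 1.03 and 2.17 TPM (2.71-fold), and Ccn3, which shares the IGF-binding domain, at 0.580 and 0.990 TPM (2.26-fold).

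Of 25 genes that carry the signal inside the cell, 0 passed 2-fold, beside 8.44% higher and 2.55% lower over all genes tested, and their median log2 difference was -0.04. Akt1 was at 86.3 and 54.4 TPM with a scaled fold of 0.914, and Akt2, a kinase of the same family, was at 62.5 and 61.4 TPM with a fold of 1.34. Irs2, a docking protein gene, was at 9.51 and 8.12 TPM (1.15-fold). Grb14, an adaptor that restrains insulin receptor signalling, had the widest difference of the 25, at 10.3 and 14.1 TPM (1.84-fold). Among the transcription factors of growth hormone signalling, Stat5b was at 26.9 and 21.5 TPM and Stat5a at 16.4 and 11.9 TPM, with folds of 0.932 and 0.991.

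Proteases and partners of the binding proteins gave 1 gene past 2-fold of 14, which was Vtn, a share near the 8.44% of all genes tested that were higher in replicate 2. Pappa, the protease that cuts IGFBP4, was at 0.270 and 0.180 TPM, and Stc1 and Stc2, which encode inhibitors of that protease, were at 0.630 and 0.620 TPM and at 0.230 and 0.170 TPM. These 3 genes lay under 1 TPM in both libraries and, like the insulin genes, were named for their role after their values were seen. Htra1, a secreted protease that cuts IGFBP5, was at 24.2 and 15.9 TPM with a scaled fold of 1.00. Ctsd, a lysosomal protease, was at 209 and 154 TPM (1.02-fold). Igf2bp3, Ccn3 and Socs2 were named because they passed 2-fold; their mean levels were between 0.785 and 7.79 TPM.

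**Figure D5:**
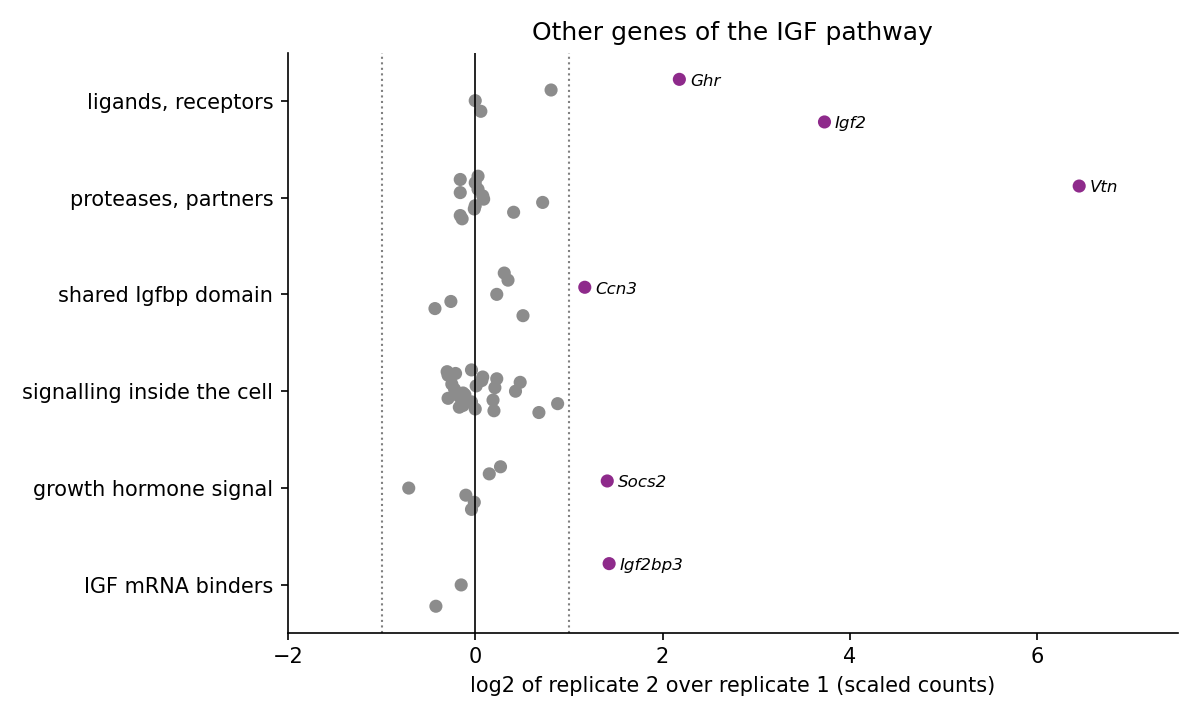
Log2 of replicate 2 over replicate 1 in scaled counts for the pathway genes outside the set, in 6 groups by role; purple points with names passed 2-fold and dotted lines mark that fold. The 6 named genes lie to the right, and the 25 genes of signalling inside the cell all lie between -0.30 and 0.88.

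For each member, the 3 protein-coding genes nearest in mean log2(TPM + 1) and in log2 difference of scaled counts were taken from 12049 candidates (mean count 100 or more), over 2 libraries. With so few libraries many genes share a pattern, and nothing about shared control is drawn from it. Nearest to Igfals was Mbl1, a plasma lectin gene, at 0.280 and 18.5 TPM, followed by Ugt2b1 and Serpina11. Nearest to Igfbp1 was Otc, a urea cycle enzyme gene, at 0.510 and 36.4 TPM, followed by Sds and Cyp2b9. Nearest to Igfbp2 was Fbp1, a gluconeogenesis enzyme gene, at 1.97 and 113 TPM, followed by Serpinf2 and Itih3. Igf1 had Stard10 (7.62 and 63.0 TPM), Gsta3 and Col18a1 nearest, at distances of 0.16 to 0.44. Igfbp4 had Apoc4 (29.3 and 206 TPM), Slc27a2 and Fn1, at 0.33 to 0.54. Those 2 members had the sparsest surroundings, since no other member had its nearest gene further than 0.082 away. Igf1r had Tnfrsf12a, Slc4a3 and Slc7a1 nearest, Igfbp3 had Ptges2, Rmdn3 and Rpl27, and Igfbp5 had Iah1, Plin5 and Mmd. Igfbp6 had Phlda3, Sco2 and Rassf3, and Igfbp7 had Akr1a1, Hist2h2aa2 and Rps26.

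The other liver cell markers (Kupffer, sinusoidal, stellate and bile duct) were higher in replicate 2 in 10 of 11 cases, with summed levels of 8.38 and 58.2 TPM. Those of macrophages were higher in 5 of 10 (56.9 and 69.4 TPM), and those of pericytes and smooth muscle in 3 of 10 (98.4 and 108 TPM). Of the 10 cortex markers 3 were lower, with a median log2 difference of -0.86, and of the 10 chromaffin markers 2 were lower, with a median of -0.76. Igf1r, at -0.62, moved in the direction of these adrenal markers, and the part of adrenal cell content in it was not tested. Kidney markers were near absent, with 0.640 and 0.340 TPM summed over 8 genes, of which 3 in replicate 1 and 4 in replicate 2 had 0 counts.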

How the data were processed

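Gene and transcript tables deposited by the authors were used for each of the 2 libraries of total RNA. Expected counts and TPM, made by the authors, are the values of the gene table and of 1 transcript table, per the file headers, and that transcript table adds each transcript's percent of its gene's TPM. The second transcript table has the authors' estimated counts and TPM. Assembly (mm10) and annotation (GENCODE M21) come from the text deposited with the samples. Tools, versions and use of strand: not given in the sources used here.

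Expected counts were rounded to whole numbers and scaled with edgeR 4.0.16 (TMM, R 4.3.3), with DESeq2 1.42.0 size factors as an alternative. Log2 differences used a prior count of 0.5, and 26249 tRNA or other entries and 96 ERCC entries stayed out of gene counts. No fold was given where neither library had more than 3 counts, and 3 counts set the upper limit given for genes with 0 counts. The scaling was tested on simulated counts with fewer changed genes than here, all raised, and by less than the hepatocyte markers. That test does not cover a shift of the size seen between these libraries. Members, lists and motifs were chosen with earlier results of these data known. Named genes were all members, pathway genes with a mean of at least 5 TPM or past 2-fold, with 5 others (Pappa, Stc1, Stc2, Ins1 and Ins2) named for their role after their values were seen, up to 3 genes of a marker list, and the 3 genes nearest to each member. The 6 pathway lists and 12 marker lists held symbols of which 7 matched no gene, 6 of them older names of genes matched under the current one. Promoter sequences came from RefSeq and Igf1 segments from GENCODE transcripts. Other scalings, pseudocounts, thresholds and the second table were tried.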

Additional observations from a re-analysis of the deposited data

How the results depend on the processing

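With 2 libraries of 1 group, leaving out either one leaves no difference to compute, and the count of members at or above 1 TPM was then 8 to 10. The count of members past 2-fold was 5 with TMM, DESeq2 size factors, spike-in or total counts and in the second table, and 6 on log2(TPM + 1) or log2(TPM + 0.1), where Igf1r was added as lower. A fold of 1.5 gave 9 (8 higher, 1 lower). The pathway count of 6 higher and 0 lower was 5 higher and 0 lower with spike-in counts, and 5 higher and 1 lower with total counts and on log2(TPM + 0.1). It was 3 on log2(TPM + 1), 11 at a fold of 1.5 (10 higher, 1 lower) and 3 at a fold of 4. The share of all genes past 2-fold in either direction was 11.0%. It was 12.8% with a minimum mean count of 10, 8.36% with one of 100 and 30.4% with none. Shares of expected counts in place of TPM put Igfbp5 above Igfbp4 in replicate 1. Of 70 log2 differences of members under alternatives, 34 moved by more than the counting interval. Depth limits the folds of Igfals, Igfbp1 and Igfbp2, which rest on 17, 23 and 78 counts in replicate 1, and the division of Igf1 reads among its transcripts, on which the tables differ.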
